A study of Mus musculus with 8 samples.

Results

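SN4741 is an immortalised mouse neural precursor line, and 7 long noncoding RNA genes of these cells are described here: Malat1, Neat1, Gas5, Snhg1, Snhg3, Snhg12 and Kcnq1ot1. The genes were chosen by symbol with their levels at both temperatures in these libraries already known, so the difference between temperatures is given below as a description with no test. Of the 31053 genes in the matrices, 4 matched a listed symbol, namely Malat1, Neat1, Snhg12 and Kcnq1ot1. Gas5, Snhg1 and Snhg3 matched by neither symbol nor Ensembl identifier and were not analysed here. These 3 genes carry the biotype processed_transcript in GENCODE M21, a class of which 10 of 790 genes matched a row, against 5459 of 5854 lincRNA genes and 2816 of 2959 antisense genes. All 4 matched genes passed the filter on low counts.

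The line, whose genotype is labelled WT, was sampled in 8 single-cell libraries. In the 4 libraries at 37 °C, the permissive temperature, cells grew in 10% serum, and in the 4 libraries at 39 °C, the non-permissive temperature, they grew for 48 hours in 0.5% serum, so temperature and serum cannot be told apart. All cells descend from 1 clonal line that carries a heat-sensitive SV40 large T antigen driven by the tyrosine hydroxylase promoter and has an unstable, polyploid karyotype. Nothing in the labels says that replicates were separate cultures, so p-values rest on the spread between these libraries, which may be technical. The fits share this spread over genes. A p-value or standard error (SE) can thus be smaller than a gene's own library values alone would give. After filtering, 18351 of 19125 cells were kept, 985 to 3494 per library, with 17166686 to 29633818 UMIs (molecular barcodes that count each captured RNA once) and a median of 6676 to 16665 UMIs per cell. The deepest cells and the fewest of them were in 39 °C replicate 1, and at most 5 barcodes were shared by any pair of libraries. Of 8 neural precursor markers, 4 were counted often enough to be tested between temperatures (Nes, Sox2, Vim and Msi1), while Sox1, Pax6, Hes5 and Fabp7 were not. Nes fell from 467 ± 54.2 to 108 ± 6.36 CPM (counts scaled to 1000000 per library; SD, n = 4). Sox2 rose from 55.4 ± 2.23 to 76.5 ± 3.25 CPM, and Msi1 rose at the edge of detection. Of 7 mesenchymal markers, 4 fell and 0 rose, with Col3a1 going from 11.9 ± 0.646 to 1.01 ± 0.467 CPM and Col1a2 from 678 ± 11.4 to 182 ± 6.97. Of 5 endothelial markers, 2 were tested and Pecam1 rose, at 0.240 ± 0.121 against 0.631 ± 0.0876 CPM. Of 6 blood and microglia markers, 5 were tested, none passed, and each library held at most 4.66 CPM of any. The part of these markers in the results below was not tested.

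Long noncoding RNAs are transcripts with no long reading frame. Malat1 is among the most abundant nuclear RNAs and collects in nuclear speckles, bodies rich in splicing factors, while Neat1 is the scaffold on which paraspeckle proteins assemble. Gas5 and the Snhg genes carry small nucleolar RNAs (snoRNAs, guides of ribosomal RNA modification) in their introns, and their spliced exons are often short-lived because nonsense-mediated decay removes them while ribosomes are active. Kcnq1ot1 is transcribed antisense to Kcnq1 from the paternal chromosome and silences neighbouring genes on that chromosome.

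Malat1 and Neat1 neighbour each other on chromosome 19. On GRCm38 (GENCODE M21), Malat1 spans 19:5795690-5802672 and Neat1 spans 19:5824708-5845478, both on the minus strand and both annotated as single exon blocks. Snhg12 lies on the plus strand of chromosome 4 at 132308623-132311024 and contains Snora16a, Snora44, Snora61 and Snord99. Kcnq1ot1 lies on the minus strand of chromosome 7 at 143203458-143296549, within Kcnq1 on the opposite strand. Gene counts in these files do not separate the isoforms of a gene, and levels of different genes are not compared, because a 3′ count is not a level per length.

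The kit primes reverse transcription on adenine tracts, and the 3′ ends of the genes are therefore shown. Malat1 and the long Neat1 transcript are not polyadenylated in the usual way. Their ends are cut by RNase P and folded into a triple helix of uracil-rich and adenine-rich stretches. The 2 longest stretches shared, in order, by the last 400 bases of Malat1-201 and the last 100 bases of Neat1-201 were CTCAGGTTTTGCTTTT and AAAAAGCAAAA. They are shown in capitals in the 3′ ends, written as DNA from 5′ to 3′, at chr19:5795982-5796063 and chr19:5824708-5824796, both on the minus strand:
Malat1-201: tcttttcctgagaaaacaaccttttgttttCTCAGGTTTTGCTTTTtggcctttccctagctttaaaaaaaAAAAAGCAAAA
Neat1-201: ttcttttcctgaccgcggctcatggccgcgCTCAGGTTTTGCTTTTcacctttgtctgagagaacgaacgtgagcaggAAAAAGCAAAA
On the transcript strand, the first stretch occurred in 2 of 55341 annotated genes, Malat1 and Neat1, and the second in 0.679%. The Malat1-201 segment shown ends 292 bases before the annotated end of that transcript, and the Neat1-201 segment ends at the annotated end. The longest run of adenines was 12 in Malat1-201 and 7 in Neat1-201.

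The short Neat1 transcript, Snhg12 and Kcnq1ot1 end in a usual polyadenylation signal. The last 50 annotated bases are shown with AATAAA in capitals, from chr19:5842307-5842356 (minus strand), chr4:132310975-132311024 (plus strand) and chr7:143203458-143203507 (minus strand):
Neat1-202: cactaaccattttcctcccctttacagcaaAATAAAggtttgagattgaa
Snhg12-201: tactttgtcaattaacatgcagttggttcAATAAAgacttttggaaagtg
Kcnq1ot1-201: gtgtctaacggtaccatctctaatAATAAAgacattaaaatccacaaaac
The signal was present in the last 50 bases of 26.6% of 141767 annotated transcripts. Kcnq1ot1 also held 10 runs of 10 or more adenines, the longest of 41, in its 93092 bases. Where on a transcript each UMI was primed is not recorded in gene counts.

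Promoter windows (250 bases before to 50 after the start, RefSeq, GRCm38.p6) matched 3 of the 4 genes, Neat1 having none in the table. Genes that host snoRNAs often start with a run of pyrimidines, the mark of transcripts whose translation follows growth signals. RefSeq places the Snhg12 start downstream of the first base of the GENCODE gene, and the 100 bases around the RefSeq start (chr4:132308628-132308727, plus strand) are shown with the run of C and T over the first base in capitals:
Snhg12: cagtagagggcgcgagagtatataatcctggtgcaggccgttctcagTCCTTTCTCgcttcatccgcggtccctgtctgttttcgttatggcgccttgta
The run had 9 bases, and 3.03% of 32851 promoter windows had a run as long or longer. The run of Malat1 had 2 bases, and the first base of Kcnq1ot1 was a purine. The Kcnq1ot1 window (chr7:143296498-143296797, minus strand) is shown with CCAAT and TGACGT, searched on both strands, in capitals, since CCAAT boxes are a known feature of this promoter:
Kcnq1ot1: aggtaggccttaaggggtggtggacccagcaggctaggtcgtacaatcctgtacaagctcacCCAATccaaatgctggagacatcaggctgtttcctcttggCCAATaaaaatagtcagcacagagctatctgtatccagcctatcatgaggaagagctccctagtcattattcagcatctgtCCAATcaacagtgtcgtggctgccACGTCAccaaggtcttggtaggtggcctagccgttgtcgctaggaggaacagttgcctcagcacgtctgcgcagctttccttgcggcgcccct
It held 3 CCAAT matches, a number reached or passed by 3.37% of the windows, and 1 TGACGT match. TGACGT was present in 7.51% of all windows and 2 times in that of Malat1. These matches describe letters only, and factor binding was not measured.

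All 4 genes stood higher in every 39 °C library than in any 37 °C library. Malat1 was counted at 24681, 26883, 22548 and 20161 CPM in 37 °C replicates 1 to 4 and at 61316, 49931, 49774 and 47103 CPM in 39 °C replicates 1 to 4. It took 1.98% to 2.64% of all UMIs at 37 °C and 4.76% to 6.30% at 39 °C. The log2 difference was 1.14 ± 0.0965 (SE, n = 4 against 4), and 39 °C replicate 1 was the highest library.

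Neat1 stood at 709, 610.3, 637 and 635 CPM at 37 °C and at 1130.2, 1335, 1299 and 1419 CPM at 39 °C, a log2 difference of 1.00 ± 0.0682. Here 39 °C replicate 1 was the lowest library of its group, the opposite of its place for Malat1. Snhg12 was the scarcest of the genes in UMIs, at 779 to 1091 UMIs per library at 37 °C. Its level was 37.4, 30.2, 30.3 and 30.4 CPM at 37 °C and 78.2, 87.9, 87.0 and 95.2 CPM at 39 °C. Snhg12 had the largest log2 difference of the 4, 1.44 ± 0.0691.

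Kcnq1ot1 differed least. It stood at 78.3, 70.2, 74.9 and 74.7 CPM at 37 °C and at 88.7, 92.1, 92.9 and 89.8 CPM at 39 °C, a log2 difference of 0.29 ± 0.0454. The gap between its highest 37 °C and lowest 39 °C library was thus narrow. The choice of genes used this contrast, and nothing is read from the fact that the groups stood apart for 4 of 4. Over all 15810 genes tested, 62.0% were called (adjusted p under 0.05, edgeR), 31.5% higher at 39 °C and 30.5% lower. The groups did not overlap for 56.7% of genes, and for 28.7% they did not overlap with 39 °C higher. At the threshold that the study set for its bulk RNA-seq (adjusted p under 0.01 and a log2 size over 1.5), 5.83% were called. The study's values came from DESeq2, with fold changes shrunk for display and ranking, whereas those here came from edgeR on single-cell sums. Snhg12, at 1.44, was the nearest of the 4 to that size. The median log2 difference over all genes was 0.02.

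**Figure D1:**
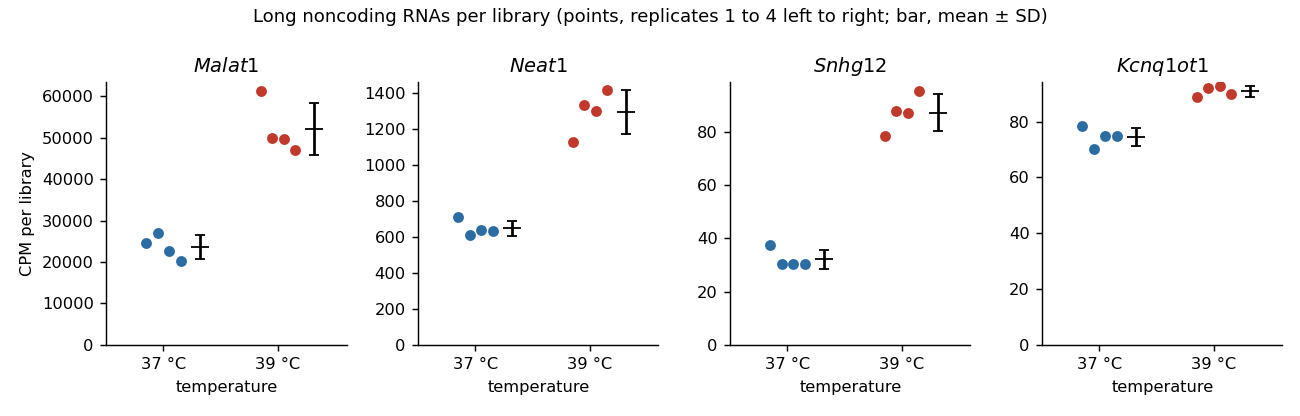
CPM of each gene (y axis, from 0) in each library (points, replicates 1 to 4 from left to right) at 37 °C (blue) and 39 °C (red), with the mean ± SD of 4 libraries as black bars. Malat1, Neat1 and Snhg12 stand well apart between temperatures, while for Kcnq1ot1 the highest 37 °C library (78.3 CPM) lies close under the lowest 39 °C library (88.7 CPM).

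Cells assigned to G1 made up at most 28.1% of the kept cells of a library at 37 °C and 82.0% to 84.9% at 39 °C. In G1 cells alone, the log2 differences were 0.80 for Malat1, 0.77 for Neat1, 1.10 for Snhg12 and 0.25 for Kcnq1ot1, smaller than in all cells for each gene. In sums over cells, RNA per cell and the number of cells that hold it cannot be told apart, so the counts were also read cell by cell after thinning every cell to 5000 UMIs. The median cell then held 87 to 117 Malat1 UMIs at 37 °C and 226 to 298 at 39 °C. The 10th percentile of cells was 41 to 56 UMIs at 37 °C and 113 to 169 at 39 °C. For Neat1, the median cell held 2 to 3 UMIs at 37 °C and 5 to 6 at 39 °C. Snhg12 was seen in 12.8% to 16.6% of thinned cells at 37 °C and in 33.6% to 35.5% at 39 °C, and Kcnq1ot1 in 24.9% to 29.3% and 29.5% to 31.0%. Mean UMIs per thinned cell were 0.163 and 0.454 for Snhg12 and 0.376 and 0.472 for Kcnq1ot1. At such low means the share of cells with a UMI largely follows the mean. For Snhg12 and Kcnq1ot1 the shares thus cannot tell more RNA per cell from more cells holding it. Shallower cells were left out, 668 at 37 °C and 1668 at 39 °C.

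The variance of thinned UMIs over their mean was also taken in each library. This ratio grows with the mean, so it is not compared between genes, and a ratio near 1 at a low mean says little about how evenly cells held an RNA. The means also differed between temperatures, so overlapping ratios do not show an unchanged spread relative to the mean. For Malat1 the ratio was 49.2 ± 5.56 at 37 °C and 48.1 ± 4.50 at 39 °C (SD over 4 libraries), with ranges that overlapped. The Malat1 means were 122 and 266 UMIs per cell. Neat1 had 3.88 ± 0.665 and 4.73 ± 0.407, also overlapping, although the ranges parted when 37 °C replicate 4 or 39 °C replicate 1 was left out. Its means were 3.27 and 6.58 UMIs per cell. For Kcnq1ot1 the ratio was 1.34 to 1.44 at 37 °C and 1.55 to 1.79 at 39 °C, beside means of 0.376 and 0.472 UMIs per cell.

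The cell cycle phase itself was not used in choosing the genes. Differences between phases of the same library were tested (edgeR quasi-likelihood test with the library as a block and Benjamini-Hochberg adjustment over all genes). G1 cells were more frequent at 39 °C, so a choice made with the temperature difference known could favour genes high in G1. The phase p-values are therefore not independent of that choice. None of the 4 is in the lists that define the phases. Phases are calls from expression scores, and no other measure of cycling was made. Malat1 was lower in cells assigned to S and to G2M than in those assigned to G1, in 4 of 4 libraries at both temperatures. At 37 °C it stood at 32213 ± 4356 CPM in G1, 21220.4 ± 2504 in S and 22384 ± 2628 in G2M (SD, n = 4), a log2 fall of 0.57 ± 0.0147 (SE) in S with adjusted p = 1.36e-52 and of 0.50 ± 0.0147 in G2M with adjusted p = 6.44e-49. At 39 °C it stood at 54841, 39319.9 and 37337 CPM, with falls of 0.48 and 0.55 (adjusted p = 5.22e-59 and 2.07e-74). The fall in G2M did not differ between temperatures beyond its error (log2 -0.02 ± 0.0354, adjusted p = 0.777), although without 39 °C replicate 2 the difference was -0.12 and passed (adjusted p = 0.0280). With phases scored in each library, the falls at 39 °C were smaller, 0.26 in S and 0.14 in G2M, that in G2M at 37 °C was 0.32, and the difference between temperatures turned to 0.21 (adjusted p = 7.69e-09). In the same contrasts, 21.8% of all genes fell in G2M and 21.5% in S at 37 °C, and 13.7% and 19.1% at 39 °C.

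Neat1 fell most in S. At 37 °C it stood at 894, 780.4, 795 and 905 CPM in G1 of replicates 1 to 4, against 518, 443, 455 and 459 in S, a log2 fall of 0.82 ± 0.0260 (adjusted p = 9.53e-46). At 39 °C, G1 held 1225, 1440.1, 1402 and 1525 CPM and S held 554, 772, 709 and 929, a fall of 0.93 ± 0.0376 (adjusted p = 3.97e-131). No library's S value reached its G1 value at either temperature. In G2M levels were 815, 732, 784 and 704 CPM at 37 °C, a fall of 0.13 ± 0.0252 (adjusted p = 5.88e-06), and 845, 864, 900.4 and 1103 CPM at 39 °C, a fall of 0.60 ± 0.0405 (adjusted p = 6.44e-48). The difference of these falls passed the test (log2 -0.45 ± 0.0543, adjusted p = 8.62e-10), where 4.25% of all genes did in that direction. The small G2M fall at 37 °C lost its call without 37 °C replicate 4 (log2 -0.05, adjusted p = 0.147), among cells of 8000 to 16000 UMIs (-0.08, adjusted p = 0.251) and with phases scored in each library (-0.02, adjusted p = 0.407). That scoring also ended the call for the difference between temperatures (-0.04, adjusted p = 0.505), with falls at 39 °C of 0.51 in S and 0.0963 in G2M.

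Snhg12 was lower in S in 4 of 4 libraries at both temperatures. At 37 °C it fell from 43.4 ± 3.18 CPM in G1 to 30.5 ± 4.02 in S (log2 -0.48 ± 0.0662, adjusted p = 1.60e-09) and 28.9 ± 4.35 in G2M (-0.56 ± 0.0673, adjusted p = 1.88e-11). At 39 °C it fell from 91.0 ± 7.86 to 65.1 ± 7.001 CPM in S (-0.49 ± 0.0642, adjusted p = 4.37e-13). G2M at 39 °C stood at 88.3, 87.8, 62.6 and 86.6 CPM, under the G1 values of 80.6, 91.3, 92.3 and 99.7 in 3 of 4 libraries, with replicate 1 above. That contrast (-0.22 ± 0.0832, adjusted p = 0.0388) was lost without 39 °C replicate 3 (adjusted p = 0.615) or replicate 4 (adjusted p = 0.117), and turned to 0.22 (adjusted p = 7.81e-05) when phases were scored in each library. It rested on 51 to 122 UMIs per library. The same scoring gave -0.30 in S at 39 °C.

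Kcnq1ot1 was the exception among the 4. At 37 °C its level did not pass the test in either phase, where 23.8% of all genes rose in S and 23.1% in G2M (S, log2 0.10 ± 0.0477, adjusted p = 0.0890; G2M, -0.05 ± 0.0487, adjusted p = 0.4505). Without 37 °C replicate 1 the S difference was 0.16 and passed (adjusted p = 0.0127). At 39 °C it stood at 85.4, 89.8, 89.9 and 85.1 CPM in G1 and at 109.7, 116, 115 and 119 CPM in S, and it rose by 0.39 ± 0.0557 (adjusted p = 2.92e-11). All S values lay above all G1 values, in a contrast in which 17.4% of all genes rose. G2M held 116, 87.8, 109.7 and 111 CPM at 39 °C, a rise of 0.26 ± 0.0770 (adjusted p = 0.00377) that was seen in 3 of 4 libraries and lost without 39 °C replicate 4 (adjusted p = 0.0992), among cells of 8000 to 16000 UMIs (adjusted p = 0.123) and with phases scored in each library (0.11, adjusted p = 0.0673).

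The G2M difference between temperatures passed the test for Snhg12 (0.36 ± 0.112, adjusted p = 0.0355) and Kcnq1ot1 (0.33 ± 0.0904, adjusted p = 0.0124), among 3.22% of all genes in that direction. The call for Snhg12 was lost without 37 °C replicate 2 (adjusted p = 0.118) or 3 (0.0834) and without 39 °C replicate 1 (0.1404), 2 (0.321) or 4 (0.102). The call for Kcnq1ot1 was lost without 39 °C replicate 1 (adjusted p = 0.0557), 3 (0.0619) or 4 (0.106). Among cells of 8000 to 16000 UMIs neither passed (adjusted p = 0.766 and 0.454), and with phases scored in each library the differences were 0.76 and 0.21. About 5.79% of cells at 37 °C and 5.33% at 39 °C lay within 0.02 of a phase limit on the score scale. Median depth in G2M was above that in G1 in each 37 °C library, and its part in the phase differences was tested only through the cells of 8000 to 16000 UMIs.

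**Figure D2:**
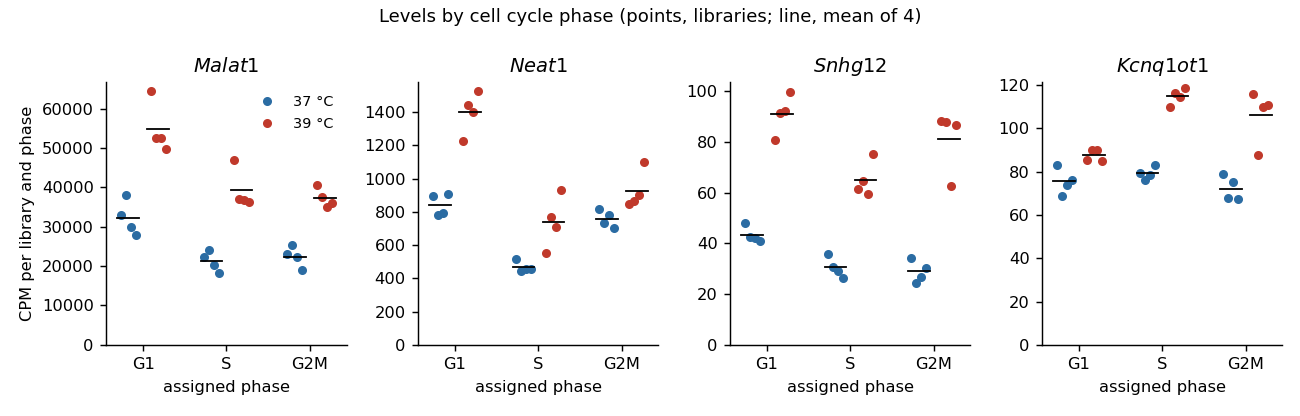
CPM of each gene (y axis, from 0) summed over the cells of a library assigned to G1, S or G2M (x axis), with 1 point per library at 37 °C (blue) and 39 °C (red) and the mean of 4 as a black line. Malat1 and Neat1 are lowest in S or G2M at both temperatures, and Kcnq1ot1 at 39 °C lies higher in S (109.7 to 119 CPM) than in G1 (85.1 to 89.9 CPM).

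Within each library, cells were ranked by their non-mitochondrial UMIs into 5 equal bins, and levels were taken as CPM of non-mitochondrial UMIs. Cells of a library share its handling, so the following are descriptions over 4 libraries with no test. At 37 °C, deep cells held smaller shares of Malat1 than shallow ones: 31603 ± 3984 CPM in the shallowest bin and 22146 ± 2948 in the deepest (SD, n = 4). The log2 ratio was -0.51 ± 0.0426 at 37 °C and only -0.14 ± 0.0618 at 39 °C, negative in all 8 libraries. The bins also differed in phase, with 34.6% of cells in G1 in the shallowest and 14.96% in the deepest at 37 °C, against 81.9% and 87.6% at 39 °C. In G1 cells alone the ratios for Malat1 were -0.38 and -0.13.

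Neat1 went in opposite directions at the temperatures. Its ratio was -0.32, -0.05, -0.19 and -0.36 in 37 °C replicates 1 to 4 and 0.26, 0.23, 0.33 and 0.15 in 39 °C replicates 1 to 4. At 39 °C its level went from 1237 ± 138 CPM in the shallowest bin to 1485 ± 137 in the next to deepest. The negative ratio at 37 °C (mean -0.23 ± 0.139) became 0.07 in G1 cells alone, and the positive ratio at 39 °C (0.24 ± 0.0767) became -0.03 within the cells above the median mitochondrial share.

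Snhg12 was lower in deep cells at 39 °C, from 123 ± 6.89 to 85.8 ± 7.68 CPM (log2 -0.53 ± 0.0931, negative in 4 of 4). At 37 °C its ratio ranged from -0.84 to 0.38, with replicate 4 alone above 0. Kcnq1ot1 was lower in deep cells in all 8 libraries, by -0.30 ± 0.0457 at 37 °C and -0.27 ± 0.146 at 39 °C. Over 10189 genes counted often enough in the end bins, 39.7% were lower in the deepest bin in 4 of 4 libraries at 37 °C and 26.0% at 39 °C, and 16.3% were higher at 39 °C. Their median ratio was -0.13 at 37 °C and -0.05 at 39 °C.

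**Figure D3:**
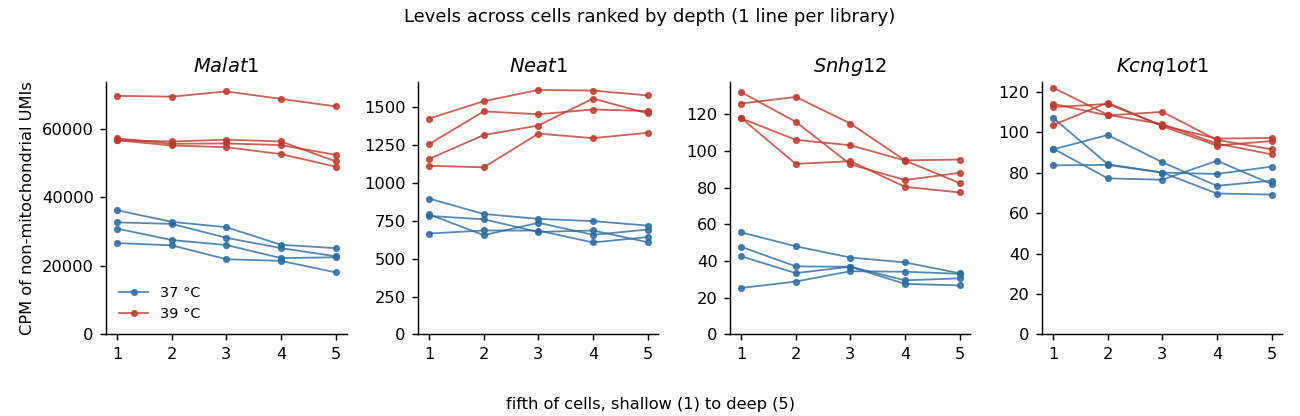
CPM of non-mitochondrial UMIs of each gene (y axis, from 0) in 5 equal bins of cells from shallow to deep (x axis), 1 line per library at 37 °C (blue) and 39 °C (red). Malat1 declines toward deep cells at 37 °C, and Neat1 climbs at 39 °C from a mean of 1237 to 1485 CPM by the next to deepest bin.

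Cells were ranked in the same way by the share of their UMIs from 13 mitochondrial genes. The share and depth were linked across cells, with Spearman correlations of -0.21 to -0.26 at 37 °C and -0.23 to -0.35 at 39 °C over the 985 to 3494 cells of a library. Both measures share the same UMIs of a cell. The median mitochondrial share of the lowest and the highest bin was on average 5.97% and 9.78% at 37 °C. At 39 °C it was 6.35% on average in the lowest bin and 10.4% to 11.9% in the highest.

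At 39 °C, where Neat1 had the largest ratio of the 4 genes, its level was 1860 ± 121 CPM in the bin of cells with the lowest mitochondrial share and 1375 ± 183 in the next, after which it changed little to 1251 ± 128 in the highest. The log2 ratio of the highest to the lowest bin was -0.58 ± 0.0822, negative in 4 of 4 libraries, while at 37 °C it was -0.13 ± 0.179 and positive in replicate 4. Within the cells above the median depth the 39 °C ratio was -0.78, and within those below it was -0.05.

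Malat1 had a ratio of 0.18, 0.13, 0.12 and 0.12 in 37 °C replicates 1 to 4 and of -0.23, -0.25, -0.31 and -0.35 in 39 °C replicates 1 to 4. The directions were opposite in all libraries, but the 37 °C value turned to -0.06 in G1 cells alone and to -0.11 within the cells above the median depth. At 39 °C, as for Neat1, the lowest bin stood apart, at 65845 ± 7273 CPM against 55929 ± 6665 in the next.

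Snhg12 was higher in cells with a high mitochondrial share in all 8 libraries, by 0.33 ± 0.0397 at 37 °C and 0.23 ± 0.167 at 39 °C. The 39 °C value was -0.06 within the cells above the median depth. Kcnq1ot1 had -0.11 ± 0.1000 at 37 °C and 0.22 ± 0.0831 at 39 °C, and the latter was -0.31 within the cells below the median depth and 0.39 within those above. Of 10116 genes, 21.8% were lower in the highest bin in 4 of 4 libraries at 39 °C and 28.4% were higher, with 21.9% and 28.2% at 37 °C.

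**Figure D4:**
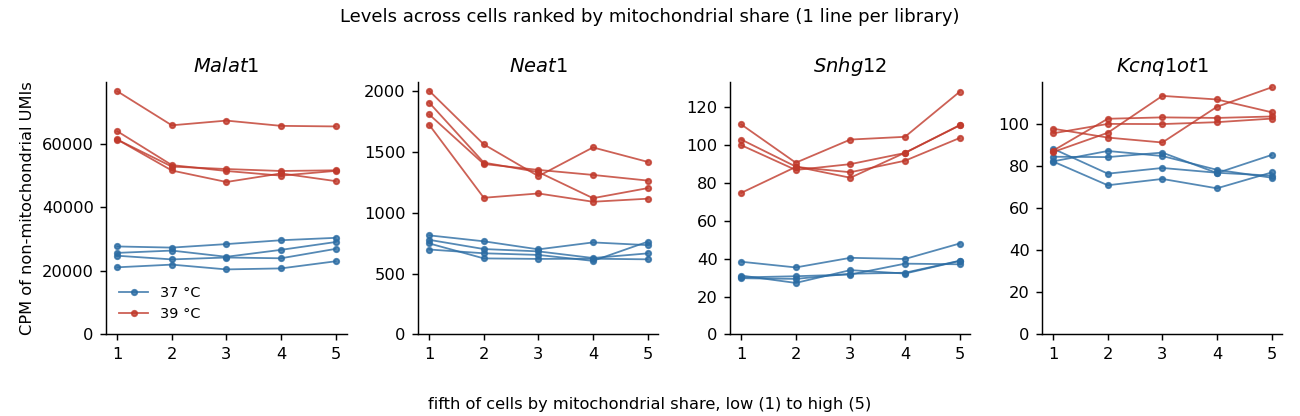
CPM of non-mitochondrial UMIs of each gene (y axis, from 0) in 5 equal bins of cells from low to high mitochondrial share (x axis), 1 line per library at 37 °C (blue) and 39 °C (red). At 39 °C Neat1 and Malat1 are highest in the first bin (means of 1860 and 65845 CPM), and Snhg12 is higher in the last bin than in the first.

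Cells were also ranked into 5 bins by the Malat1 share of their non-mitochondrial UMIs. In the highest bin Neat1 was higher than in the lowest by a log2 value of 1.5996 ± 0.105 at 37 °C and 1.70 ± 0.0519 at 39 °C, with Malat1 left out of the totals. Snhg12 was higher by 0.97 ± 0.290 at 37 °C and by 0.13 ± 0.230 at 39 °C, and Kcnq1ot1 by 0.69 ± 0.0705 and 0.45 ± 0.239. The highest bin held 40.0% to 51.0% G1 cells at 37 °C against 9.97% to 11.7% in the lowest, and 91.0% to 94.7% against 67.4% to 70.6% at 39 °C. Ratios of the highest to the lowest bin were not taken over all genes, so no link particular to these RNAs is read from them.

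The mitochondrial limit of 15% removed 334 cells. In CPM of non-mitochondrial UMIs, Malat1 in these cells stood above the kept cells in 4 of 4 libraries at 37 °C, by a log2 value of 1.69 ± 0.407. At 39 °C it did so in 3 of 4, by 0.69 ± 0.678. Neat1 stood above by 1.01 ± 0.456 at 37 °C in 4 of 4, and by 0.35 ± 0.566 at 39 °C in 2 of 4. Kcnq1ot1, on 6 to 65 UMIs in the removed cells of a library, stood above by 1.57 ± 0.579 in 4 of 4 and by 0.71 ± 0.936 in 3 of 4. Snhg12 had 2 to 18 UMIs in the removed cells of a library and went both ways. The removed cells held 1973 to 5531 UMIs at the median, and the same contrast was not taken over all genes.

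The other gene lists were tested between temperatures with the same fit, and their counts are read against the 31.5% of genes called higher and 30.5% called lower. Among snoRNA host genes with noncoding exons, 7 of 17 were tested, 4 rose and 1 fell. Epb41l4aos, transcribed opposite Epb41l4a, went from 17.4 ± 3.40 to 38.3 ± 3.07 CPM (log2 1.14 ± 0.0958, adjusted p = 3.87e-09). Snhg20 went from 28.9 ± 1.14 to 38.2 ± 5.80 CPM (0.41 ± 0.0781), although 39 °C replicate 1 at 29.9 lay among the 37 °C libraries. Snhg11, at 0.756 ± 0.268 CPM against 2.97 ± 1.22, and Snhg18, at 2.29 ± 0.207 against 3.03 ± 0.529, also rose from low levels, by 2.03 and 0.42. Snhg9 fell by 0.77 from 2.19 ± 0.669 to 1.28 ± 0.166 CPM. Snhg6 (0.31 ± 0.137, adjusted p = 0.0603) and Snhg10 (0.13 ± 0.115, adjusted p = 0.363) did not pass. In G1 cells alone 2 of the hosts rose and 0 fell. Snhg4, Snhg5, Snhg7, Snhg8, Snhg14, Snhg15, Snhg16, Snhg17, Zfas1 and Dancr were not analysed here.

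Of 15 paraspeckle proteins, 14 fell and 0 rose, with a median log2 difference of -0.52. Pspc1, a core paraspeckle protein, fell by 1.04 ± 0.0706, from 37.8 ± 3.08 to 18.2 ± 1.92 CPM (adjusted p = 1.72e-10). Nudt21, a subunit of the cleavage factor that favours the short Neat1 form, fell by 0.80 ± 0.0574. Hnrnph3, named after its value was seen as the 1 exception, did not pass (-0.01 ± 0.0494). Between phases at 37 °C, 14 of the 15 were called higher in G2M than in G1 and 13 in S, against 23.1% and 23.8% of all genes. At 39 °C, 12 were called higher in G2M and 10 in S, against 12.5% and 17.4%. Rises at 37 °C were not limited to this list. Nuclear speckle proteins had 12 of 17 higher and 3 lower in G2M, and 10 higher and 6 lower in S. Proteins of snoRNA particles had 12 of 16 higher and 1 lower in G2M, and 15 higher and 1 lower in S. Between temperatures, 6 of 17 nuclear speckle proteins rose and 9 fell (median -0.17). The splicing factors Srsf7 (-1.55 ± 0.0628) and Srsf3 (-1.26 ± 0.0521) fell most, while the cyclins Ccnl1 (0.44 ± 0.0447) and Ccnl2 (0.43 ± 0.0463) rose.

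Of 16 proteins of snoRNA particles and their assembly, 13 fell and 1 rose (median -0.48). Nop56 (-1.12 ± 0.0568), a core box C/D protein, and Dkc1 (-1.08 ± 0.0596), the pseudouridine synthase of box H/ACA particles, fell most, and the assembly factor Znhit6 rose (0.62 ± 0.0485). Nonsense-mediated decay factors were split, with 7 of 17 higher and 8 lower (median -0.03). Nbas (0.56) and Smg8 (0.40) rose, and the exon junction proteins Magohb (-0.83) and Magoh (-0.66) fell. Of 22 mRNAs with a pyrimidine start, 10 rose and 6 fell (median 0.12), led by Eef2 (0.62), an elongation factor, and Eif3f (0.32), and by Hnrnpa1 (-1.03) and Nap1l1 (-0.96) among those that fell.

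Genes listed for the imprinted domain of Kcnq1ot1 showed no common direction, with 4 of 9 tested genes higher and 3 lower. Which of them Kcnq1ot1 silences in these cells was not measured, so the counts do not describe silenced genes as such. Slc22a18 (0.146 ± 0.0968 to 1.05 ± 0.411 CPM) and Ascl2 (0.212 ± 0.170 to 1.31 ± 0.276 CPM) rose at very low counts, by 2.83 ± 0.419 and 2.62 ± 0.345. Cdkn1c, a cell cycle inhibitor expressed from the maternal copy, fell from 2.87 ± 0.315 to 1.74 ± 0.497 CPM (-0.76 ± 0.166, adjusted p = 0.000509), and Tssc4 fell by 0.74 ± 0.0553. Alleles were not separated. Kcnq1 and Th were not counted often enough to be tested. Among 12 genes next to the listed genes, 5 rose and 3 fell. Zbtb37, which overlaps Gas5 on the opposite strand, rose by 1.15 ± 0.0544, followed by Slc3a2, the neighbour of Snhg1 (0.61 ± 0.0455). Rcc1, which overlaps Snhg3 on the same strand, fell by 1.04 ± 0.108. Snhg3 had no row, and whether reads from it were counted as Rcc1 was not tested.

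Of 23 other regulatory RNAs, 13 were tested, 5 rose and 2 fell. Trp53cor1, a p53-induced RNA, rose at low counts (0.661 ± 0.185 to 1.17 ± 0.0889 CPM, log2 0.82 ± 0.220), and Lncpint, also linked to p53, rose from 12.6 ± 0.589 to 22.3 ± 1.59 CPM (0.82 ± 0.0620). Airn, the antisense RNA of another imprinted domain, fell by 0.95 ± 0.146, and Jpx fell by 0.43 ± 0.124.

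**Figure D5:**
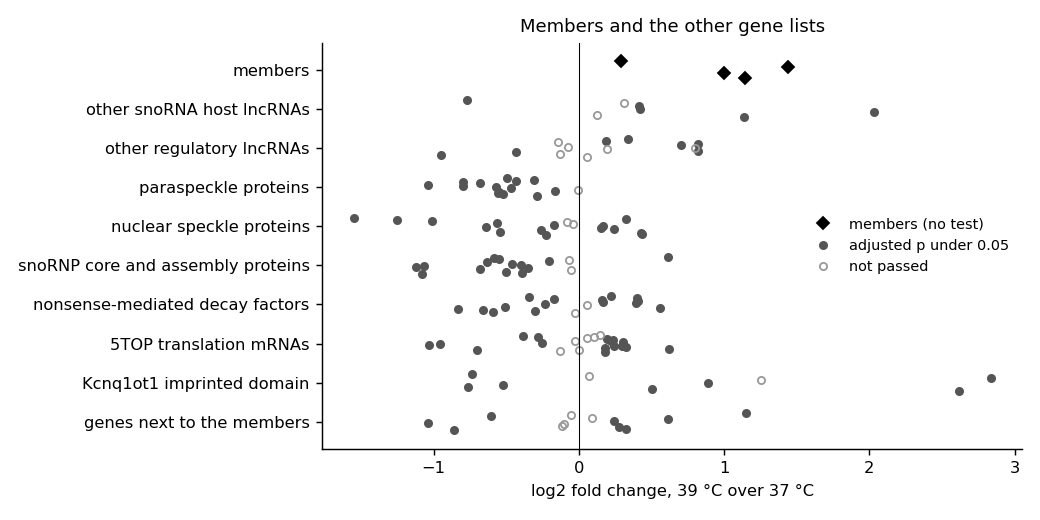
Log2 fold change of 39 °C over 37 °C (x axis) for the 4 genes described here (black diamonds, not tested) and for the tested genes of the other lists (filled, adjusted p under 0.05; open, not passed), 1 row per list. Of 15 paraspeckle proteins 14 lie left of 0 as called, while the 4 diamonds lie right of it.

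The genes most like each RNA were sought among 3322 genes of at least 50 CPM, by Pearson correlation of log2 CPM over the 8 libraries after taking off the mean of each temperature. For Malat1 these were Nfe2l1 (0.98), Scpep1 (0.97) and Gpatch8 (0.97). For Neat1 they were Egfr (0.98), Klf3 (0.97) and Trim44 (0.97), and for Snhg12 they were Foxn3 (0.98), Ypel3 (0.97) and Irf2bpl (0.97). Kcnq1ot1 was most like Tle1 (0.96), Col12a1 (0.94) and Rgs10 (0.94). Nfe2l1, Scpep1, Gpatch8 and Egfr all lie on chromosome 11, and the other genes named here lie on other chromosomes. The share of the 3322 genes that lies on chromosome 11 was not taken, so no link to that chromosome is read from this. The part of the unstable karyotype in these correlations was not tested. The values also share libraries and their depth, and with so many genes and 8 libraries high values arise readily.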

How the data were processed

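The authors captured cells with the Chromium 3′ V3 kit, aligned reads to mm10 with Cell Ranger 3.0.1 and deposited matrices of UMI counts per gene and cell, as whole numbers with no normalization. Cells with over 15% mitochondrial UMIs, under 200 or over 6000 genes were left out, which also served in place of a doublet caller. Phases were assigned with Seurat 5.3.0. Counts were summed per library, or per library and phase, and genes averaging 1 or more counts per library were tested with edgeR 4.0.16 (R 4.3.3; TMM, glmQLFit, glmQLFTest, Benjamini-Hochberg over all genes). CPM are scaled to 1000000 tested UMIs, adjusted by TMM factors. Bins of cells, thinning and sequences were handled in Python 3.11.15. The fits were checked on simulated data with known changes. Errors are SDs over libraries or SEs of the fits, and replicates differed by more than counting error (chi-square per degree of freedom 2.85 to 21.4 over 12 pairs).

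The genes, lists and tests were chosen with earlier results of these data known. Named were the listed genes, every tested host RNA, up to 2 called genes each way per other list with the largest change, and for each gene the 3 most alike of at least 50 CPM. A gene that this rule named is not reported here. Of the features, 31011 of 31053 matched GENCODE M21 by Ensembl identifier. DESeq2 1.42.0, other scaling, filters, thinning, a replicate block and each library left out in turn were alternatives.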

Additional observations from a re-analysis of the deposited data

Results flagged for a closer look

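Snhg12 in 37 °C replicate 1 (37.4 CPM) lay far from the other three libraries of its group (30.2 to 30.4 CPM), with a gap of 0.971 of the group's range. It was the 1 such case among 24 groups of 4 values, where chance alone gives about 1 in 20.

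The G2M difference from G1 differed between temperatures for Neat1 (log2 -0.45), Snhg12 (0.36) and Kcnq1ot1 (0.33), as given above with the libraries on which the last pair rest. For Neat1 the difference was -0.04 (adjusted p = 0.505) when phases were scored in each library.

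The ratio of the deepest to the shallowest of 5 bins of cells was negative for Neat1 in all 37 °C libraries and positive in all 39 °C libraries, the means being 0.47 apart on the log2 scale. The ratio of the highest to the lowest bin by mitochondrial share was positive for Malat1 in all 37 °C libraries and negative in all 39 °C libraries, the means being apart by -0.42. Neither difference was tested.

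Malat1 took a larger share of non-mitochondrial UMIs in cells outside the mitochondrial limit than in kept cells at 37 °C, by a mean log2 value of 1.69 in 4 of 4 libraries. This is a share and not an amount per cell. The removed cells at 37 °C held 1973 to 4001 UMIs at the median, against 9839 to 15413 in kept cells.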

How the results depend on the processing

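The temperature differences of the 4 genes kept their direction under all alternatives run. Leaving out each library in turn gave 1.05 to 1.21 for Malat1, 0.95 to 1.05 for Neat1, 1.39 to 1.505 for Snhg12 and 0.26 to 0.29 for Kcnq1ot1, and 9330 to 9730 called genes against 9803. Replicate numbers did not pair the libraries (correlations of deviations -0.03, -0.01, 0.01 and 0.03), and with the replicate block 9617 genes were called and Malat1 stood at 1.14. In G1 cells alone 2 host RNAs rose and 0 fell, against 4 and 1. The G2M difference between temperatures was called for 1 of the 4 genes among cells of 8000 to 16000 UMIs and for 1 to 3 when a library was left out, against 3. The variance ratio, not adjusted for the mean, separated temperatures for 1 to 2 genes when a library was left out. With phases scored in each library, Snhg12 in G2M at 39 °C reversed to 0.22 and the Malat1 difference between temperatures to 0.21. For the bins, Neat1 by depth reversed to 0.0713 (37 °C, G1 cells) and -0.0314 (39 °C, cells above the median mitochondrial share). By mitochondrial share, Malat1 at 37 °C reversed to -0.0613 (G1 cells) and -0.11 (cells above the median depth), Kcnq1ot1 at 39 °C to -0.31 (cells below the median depth) and Snhg12 at 39 °C to -0.0554 (cells above the median depth). The causes were not tested. At 39 °C, G2M rests on 33 to 199 cells per library.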
